A study of Mus musculus with 4 samples.

Results

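The 10 genes described here are *Acta2*, *Tagln*, *Myh11*, *Cnn1*, *Myl9*, *Des*, *Actg2*, *Tpm2*, *Cspg4* and *Rgs5*, which mark smooth muscle cells and pericytes, the mural cells that wrap blood vessels. They were chosen by symbol, all 10 were found among the 24063 gene symbols of the count tables, and all 10 were among the 16208 genes tested. Their RNA was measured in lung endothelial cells (ECs) of C57BL6J mice that were 8 weeks old, 7 days after unilateral pneumonectomy (PNX, removal of the left lung) or after a sham operation, a thoracotomy without PNX. No transgene is named for either group. The study's methods name ketamine and xylazine as anesthesia for the surgery and meloxicam against pain afterwards. The ECs of both were collected with magnetic beads against CD31. Each group had 2 libraries, and each library pooled the cells of 2 mice, so that single animals cannot be told apart. No statistic below measures more than the spread between such pools.

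In smooth muscle, contraction is driven by a myosin built of the heavy chain Myh11 and light chains such as Myl9, which pulls on thin filaments of the actins Acta2 and Actg2. Tropomyosin (Tpm2), calponin (Cnn1) and transgelin (Tagln) bind those filaments, and desmin (Des) forms the intermediate filament network that holds them in register. Pericytes lie under the endothelium of capillaries and are recognised by the proteoglycan NG2 (Cspg4) and the G protein signalling regulator Rgs5. In the lung, smooth muscle surrounds airways, arteries and veins, and pericytes share the basement membrane of the capillary endothelium, so that mural cells are a known companion of ECs in tissue digests.

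The libraries held between 41367438 and 50952879 counts, each gene being represented by its most counted transcript, so that a count of 3, the floor of counting error, stood for 0.0589 to 0.0725 CPM. Values below are normalized counts, divided by edgeR's TMM factors and brought to the mean library size, with the SD over the 2 libraries of a group. Log2 fold changes carry the standard error (SE) of edgeR's fit, and p-values come from its quasi-likelihood F test after Benjamini-Hochberg adjustment. The mice are recorded as male, yet 44 genes of chromosome Y were listed at 0 counts in all 4 libraries and *Xist* had 31872 to 33792 normalized counts. The 4 libraries were alike in this, so it does not separate the groups. *Pecam1*, which encodes CD31, had 90946 ± 240 (SD, n = 2) normalized counts in sham and 90399 ± 295 (SD, n = 2) in post-PNX libraries. RNA of other cells was present as well, since the surfactant gene *Sftpc* had 171016 ± 364 (SD, n = 2) normalized counts in sham and 111027 ± 531 (SD, n = 2) in post-PNX libraries. The 2 libraries of a group were close, with a median SD of 0.036 on the log2 scale over all genes tested.

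Promoters of many smooth muscle contractile genes are known to carry CArG boxes, the sites of serum response factor, which drives the smooth muscle programme with myocardin and its relatives. RefSeq promoter windows (GRCm38.p6) were at hand for 7 of the 10 genes, but not for *Tagln*, *Myh11* and *Actg2*. The 250 bases before the 1 start given for each of the 7 were searched. For *Acta2* and *Myl9* that start lies inside the span of the gene printed further below, so that the *Acta2* stretches lie within that span, with their matches beginning at -84, -34 and -146 from the start searched. Of these windows 1 held a CArG box, that of *Myl9*, against 1.47% of all 32851 promoter windows of the same length. Windows of *Myl9* and *Acta2* held a near match, in which 1 of the central letters is not A or T, found in 7.24% of all windows. The *Acta2* window also held CATTCC, the core of the site of TEAD factors, on the opposite strand, as did 12.6% of all windows. The stretches below are all the matches found in the windows searched, and capitals mark the match, which overlaps no other match.
*Myl9*, CArG box, chr2:156775293-156775322, plus strand: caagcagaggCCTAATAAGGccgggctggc
*Myl9*, near match, chr2:156775355-156775384, plus strand: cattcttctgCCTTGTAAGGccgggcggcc
*Acta2*, near match, chr19:34255438-34255467, minus strand: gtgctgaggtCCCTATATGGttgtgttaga
*Acta2*, near match, chr19:34255388-34255417, minus strand: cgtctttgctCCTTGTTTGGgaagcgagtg
*Acta2*, TEAD core, chr19:34255500-34255529, minus strand: gcagaacagaGGAATGcagtggaagagacc
A match in letters does not show that a factor binds there, and no binding was measured in these libraries.

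Contractile and mural cell genes were higher in post-PNX libraries, but by unequal amounts. Of the 10 genes 9 were higher with an adjusted p under 0.01, none was lower, and 1, *Myh11*, did not pass. Over all genes tested, 29.3% were higher and 27.8% lower by the same rule. A log2 fold change beyond 1 as well was reached by 2 of the 10, *Rgs5* and *Cspg4*, against 5.90% of all genes that were higher and 1.66% that were lower. In all 10 genes both post-PNX libraries were above both sham libraries, which was the case in 40.7% of all genes tested, while both were below in 40.5%. The 10 genes had a median log2 fold change of 0.52 (range 0.08 to 2.09), compared with 0.001 for all genes tested. In bulk RNA of this kind, more mural cells in the CD31-selected fraction and more RNA of these genes per cell cannot be told apart.

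**Figure D1:**
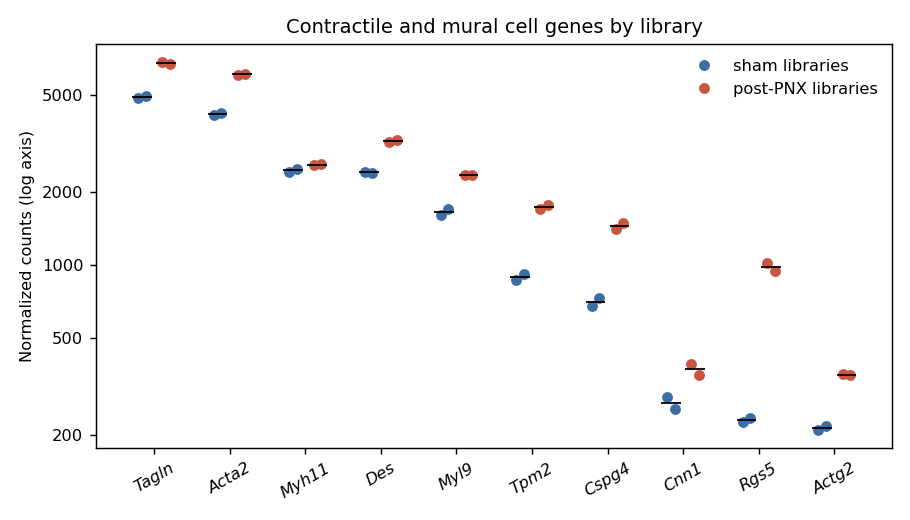
Normalized counts (log axis) of the 10 genes in each library, with 2 sham libraries in blue and 2 post-PNX libraries in red, and the group mean as a black line. The groups do not overlap in any gene, and the gap is widest in *Rgs5* and narrowest in *Myh11*.

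Among the thin filament genes, *Acta2* (smooth muscle alpha-actin, chromosome 19, 34240336 to 34255585) had 4154 and 4214 normalized counts in sham and 6070 and 6084 in post-PNX libraries. Both post-PNX libraries were thus higher by nearly the same amount. Its log2 fold change was 0.54 ± 0.026 (SE, edgeR adjusted p = 5.2e-27). *Actg2*, the gamma-actin of visceral smooth muscle on chromosome 6 from 83512909 to 83536251, was much lower, with 211 and 218 normalized counts in sham and 356 and 354 after PNX. Its log2 fold change was 0.73 ± 0.093 (SE, edgeR adjusted p = 5.0e-10), and the groups were apart by many times the spread within them. The actin genes have nearly identical coding sequences, and the counting may have divided reads among them, so the values of *Acta2* and *Actg2* are uncertain to that extent.

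*Tagln* (transgelin, also called SM22 alpha, an actin-bundling protein, chromosome 9, 45929628 to 45936058) had the highest counts of the 10 genes. It had 4857 and 4951 normalized counts in sham and 6815 and 6714 after PNX, a log2 fold change of 0.46 ± 0.025 (SE, edgeR adjusted p = 1.1e-24). The end of *Tagln* overlaps that of *Pcsk7* on the other strand, and an antisense gene, Gm48529, lies within it. The strand setting of the counting is not given in the sources used here. *Pcsk7* had 3526 and 3094 raw counts in sham and 2841 and 2500 after PNX, not adjusted for library size. Gm48529 was not among the genes counted, and whether reads of either gene add to *Tagln* was not tested. *Cnn1* (calponin 1, which binds actin and restrains the myosin motor, chromosome 9, 22099221 to 22109221) had 287 and 256 normalized counts in sham and 394 and 352 after PNX. This was the widest relative spread within groups among the 10 genes. The log2 fold change was 0.46 ± 0.089 (SE, edgeR adjusted p = 9.3e-06).

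*Tpm2* (beta-tropomyosin, which lies along the actin filament, chromosome 4, 43513726 to 43523583) had 868 and 920 normalized counts in sham and 1698 and 1764 after PNX. The log2 fold change was 0.95 ± 0.047 (SE, edgeR adjusted p = 4.8e-27), just short of the threshold of 1. *Tpm2* was the only one of the 10 with transcripts that differed clearly in counts. The shorter transcripts NM_001277875 and NM_001277876 held 93.1% to 93.8% of the counts of NM_009416 in sham libraries and 96.6% to 96.8% after PNX. Reads shared by transcripts appear in the count of each, so these shares are not isoform fractions. The *Myh11* transcripts NM_001161775 and NM_013607 differed by at most 2 counts in any library and could not be told apart.

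Among the motor and filament network genes, *Myh11* (the smooth muscle myosin heavy chain, chromosome 16, 14194527 to 14292188) had 2417 and 2488 normalized counts in sham and 2583 and 2592 after PNX. Both post-PNX libraries lay above both sham libraries, but the log2 fold change was 0.08 ± 0.034 (SE, edgeR adjusted p = 0.0393), short of the threshold of 0.01. With libraries scaled on 12 endothelial markers instead of by TMM, which shifted the median of all genes by 0.24, the log2 fold change of *Myh11* was 0.32 (edgeR adjusted p = 7.6e-10). Relative to that shift it was again close to the median gene, and in edgeR and DESeq2 fits under the other alternatives its adjusted p was 0.0277 to 0.227. *Myl9*, which encodes the regulatory light chain whose phosphorylation starts contraction (chromosome 2, 156775408 to 156781657), had 1600 and 1697 normalized counts in sham and 2340 and 2348 after PNX. Its log2 fold change was 0.51 ± 0.038 (SE, edgeR adjusted p = 2.1e-18). *Des* (desmin, chromosome 1, 75360292 to 75368579) had 2412 and 2399 normalized counts in sham and 3194 and 3274 after PNX. Its log2 fold change was 0.43 ± 0.033 (SE, edgeR adjusted p = 4.7e-18). An antisense gene that overlaps its end, Gm15179, had at most 4 counts in a library.

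The genes that mark pericytes had the 2 largest changes. *Rgs5* (chromosome 1, 169655501 to 169695813), whose protein shortens signals of G protein-coupled receptors, had 227 and 236 normalized counts in sham and 1020 and 948 after PNX, 4.26 times the sham mean. Its log2 fold change was 2.09 ± 0.072 (SE, edgeR adjusted p = 9.2e-35), higher than that of 97.8% of all genes tested. *Cspg4* (chromosome 9, 56865104 to 56899870) had 678 and 736 normalized counts in sham and 1408 and 1484 after PNX. Its log2 fold change was 1.03 ± 0.052 (SE, edgeR adjusted p = 1.5e-26). It lay so close to the threshold that without sham replicate 1 (0.97) or without PNX replicate 2 (0.998) it no longer passed, which left *Rgs5* as the 1 gene past both thresholds. The same was found with edgeR's glmTreat, which tests whether a change itself exceeds the fold threshold.

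**Figure D2:**
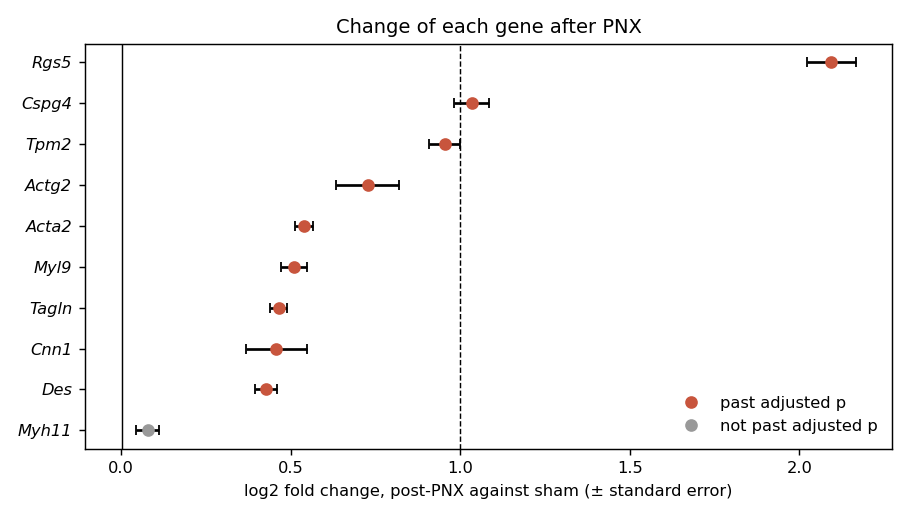
Log2 fold change of each gene, post-PNX against sham, with bars of 1 standard error from edgeR's fit, the median of all genes tested as a solid line and the threshold of 1 as a dashed line. Red genes passed an adjusted p of 0.01, grey *Myh11* did not, and *Rgs5* at 2.09 stands apart from the other 9.

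Levels of different genes were compared as normalized counts per kilobase of the transcript counted. In sham libraries the order was *Tagln* (3092 ± 42.1, SD, n = 2), *Acta2* (1627 ± 16.6), *Myl9* (1522 ± 63.6), *Des* (785 ± 2.99), *Myh11* (370 ± 7.60), *Tpm2* (275 ± 11.2), *Actg2* (163 ± 3.80), *Cnn1* (137 ± 11.1), *Rgs5* (128 ± 3.52) and *Cspg4* (87.8 ± 5.13). Only the neighbours *Cnn1* and *Rgs5* overlapped. After PNX the first 4 kept their places, and *Rgs5* moved from place 9 to place 5, with 544 ± 28.1 (SD, n = 2) normalized counts per kilobase. It then overlapped *Tpm2* (533 ± 14.3) and lay above *Myh11* (390 ± 0.89), which had stood nearly 3 times higher than *Rgs5* in sham. The level of *Tpm2* depends on the length used, 3250 bases for the transcript counted. Shorter *Tpm2* transcripts of 2108 bases held nearly as many counts, and with that length *Tpm2* would stand higher. Its order against *Myh11* and *Rgs5*, place 5 of *Rgs5* and the *Tpm2* share of the tropomyosins below therefore rest on the length used. *Cnn1* (188 ± 14.9) and *Cspg4* (180 ± 6.68) overlapped at the bottom of the order. The median gene tested had 380 normalized counts per kilobase.

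The 10 genes thus changed in their proportions, as ratios within a library show, which do not depend on the scaling between libraries. These pairs were chosen after their values were seen. *Myh11* per kilobase was 0.226 and 0.229 of *Acta2* in sham and 0.165 in each post-PNX library. *Rgs5* was 0.078 and 0.079 of *Acta2* in sham and 0.239 and 0.222 after PNX. *Tagln* and *Acta2* stayed closer to each other, with ratios of 1.90 and 1.91 in sham and 1.82 and 1.79 after PNX. The groups did not overlap in any of these ratios, but with 2 libraries per group the smallest p of a two-sided exact permutation test is 0.333, and no such test was run.

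Next, each muscle-type gene was set beside the paralogs that ECs and other cells use. *Acta2* and *Actg2* made up 2.56% ± 0.027 (SD, n = 2) of the actin family per kilobase in sham and 3.58% ± 0.031 (SD, n = 2) after PNX, while *Actb*, the cytoplasmic beta-actin, was nearly level at 92872 ± 780 and 93706 ± 1532 normalized counts (SD, n = 2 each). *Myl9* went from 4.02% and 4.18% to 5.62% and 5.60% of the regulatory light chains, the rest of which were *Myl12a* and *Myl12b*. *Tpm2* went from 0.97% and 1.02% to 1.39% and 1.42% of the tropomyosins, although *Tpm1* and *Tpm4* rose too (log2 fold changes of 0.43 and 0.56).

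The share of *Tagln* among the transgelins was 13.4% and 13.3% in sham and 14.2% and 13.8% after PNX, and *Tagln2*, its paralog of non-muscle cells, rose with it (log2 fold change 0.38). *Cnn1* was 1.10% and 0.99% of the calponins in sham and 1.38% and 1.22% after PNX. *Myh11* was 3.89% ± 0.024 (SD, n = 2) of the myosin heavy chains in sham and 4.07% ± 0.029 (SD, n = 2) after PNX. *Des* went the other way against *Vim*, which encodes vimentin, the intermediate filament of mesenchymal cells and ECs. *Vim* rose from 64124 ± 907 normalized counts to 114657 ± 1183 (SD, n = 2 each) (log2 fold change 0.84), and *Des* went from 2.20% ± 0.039 to 1.66% ± 0.012 of both together. Of the 18 paralogs tested 11 were higher, 1 was lower and none passed the fold threshold, with a median log2 fold change of 0.17. The shares over all genes were 29.3% higher and 27.8% lower. *Rgs4*, a paralog of *Rgs5*, had the largest change of them, from 425 ± 14.1 to 800 ± 51.6 (SD, n = 2) normalized counts (log2 fold change 0.91, edgeR adjusted p = 5.3e-19).

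**Figure D3:**
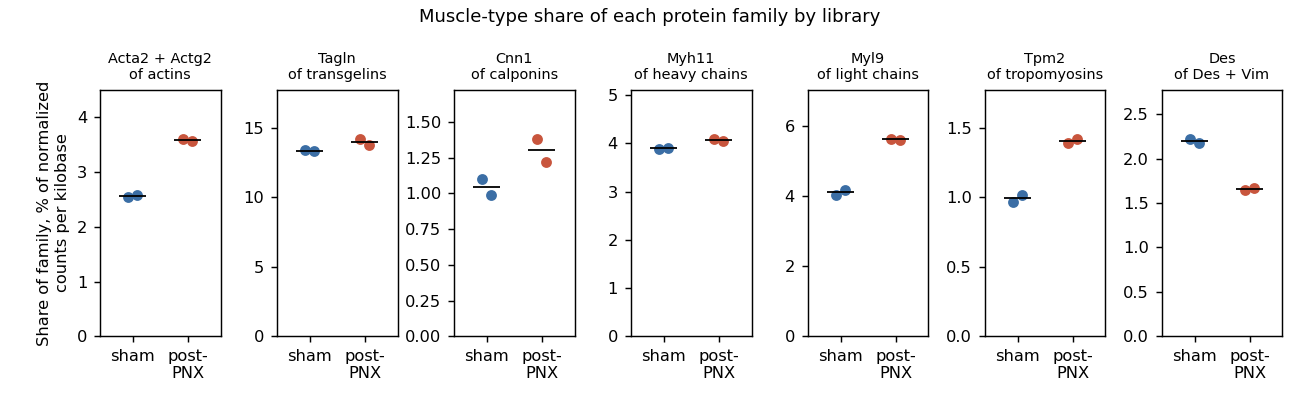
Share of the muscle-type gene in its protein family, as percent of normalized counts per kilobase, in each of the 2 sham (blue) and 2 post-PNX libraries (red), with group means as black lines and an axis from 0 in each panel. The share was higher after PNX in 6 of the 7 families, by the largest factor in actins, regulatory light chains and tropomyosins, and the desmin share was lower.

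Further smooth muscle genes moved both ways. Of 17 further genes of the smooth muscle contractile and anchoring apparatus tested, 7 were higher and 4 lower, with a median log2 fold change of 0.13, beside 29.3% higher and 27.8% lower over all genes. *Hspb6*, a small heat shock protein of muscle, had the largest rise (log2 fold change 1.01, edgeR adjusted p = 6.1e-15). It had 0.97 without sham replicate 1 and 0.98 without PNX replicate 2, and then no gene of this list passed the fold threshold. *Csrp1* and the actin crosslinker *Flna*, the most abundant in this list, rose with log2 fold changes of 0.36 and 0.26. Further genes of the list, named after their values were seen, show the range. The intermediate filament gene *Synm* had the largest fall, from 6072 and 6189 normalized counts in sham to 3684 and 3594 after PNX (log2 fold change -0.75), and *Itga8*, an integrin chain, fell too (-0.38). *Smtn* (smoothelin) and *Pdlim3* rose, with log2 fold changes of 0.38 and 0.36. *Lmod1*, *Synpo2* and *Kcnmb1* did not pass, with -0.04, 0.02 and 0.13. With the counts scaled to the endothelial markers, 10 genes of the list were higher and 2 lower.

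The genes listed for light chain phosphorylation were mostly lower, while *Myl9* was higher. *Mylk*, which encodes the kinase of the light chain, had 16187 ± 242 normalized counts in sham against 14309 ± 9.07 in post-PNX libraries (SD, n = 2 each), with a log2 fold change of -0.18 (edgeR adjusted p = 8.8e-12). Of the 10 genes of this list 7 were lower, among them the phosphatase subunit *Ppp1r12b* (log2 fold change -0.49). The 2 higher genes were *Rhoa* (0.11) and *Cald1* (0.33), which encodes caldesmon, an actin-binding protein that does not itself set this phosphorylation. Over all genes tested, 27.8% were lower and 29.3% higher. Most of these changes were smaller than the shift between scalings, and with the counts scaled to the endothelial markers 7 were higher and 1 was lower, with *Mylk* at 0.06. In DESeq2's Wald test 2 were higher and 4 lower.

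Transcription factors and cofactors of the smooth muscle programme moved both ways, with 5 higher and 5 lower of 12 tested and a median log2 fold change of 0.14, beside 29.3% higher and 27.8% lower over all genes. Scaled to the endothelial markers, 7 of them were higher and 3 lower. *Fhl2*, a cofactor that binds serum response factor, had 39.4 ± 9.60 normalized counts in sham against 91.1 ± 7.43 in post-PNX libraries (SD, n = 2 each), with a log2 fold change of 1.20 that was 0.98 without sham replicate 2. *Klf4*, which opposes the contractile programme in smooth muscle and is also an abundant factor of ECs, fell from 38520 ± 325 normalized counts to 27403 ± 680 (SD, n = 2 each) (log2 fold change -0.49). *Foxf1*, a factor of lung mesenchyme and lung ECs, fell with a log2 fold change of -0.52. *Srf* was lower (log2 fold change -0.25) and *Myocd*, the muscle-specific cofactor, had 35.3 and 43.8 normalized counts in sham and 44.2 and 40.1 after PNX, so that its groups overlapped. *Heyl* (log2 fold change 0.657), *Csrp2* (0.655), *Gata6* (0.640) and *Tbx2* (0.174) were higher, and *Mkl2* (-0.438) and *Mkl1* (-0.119) lower. These genes, *Srf* and *Myocd* were named after their values were seen.

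Other pericyte markers had smaller changes than *Rgs5* and *Cspg4*. Of 15 genes 13 were higher, 1 was lower and 1 did not pass, beside 29.3% higher and 27.8% lower over all genes. Their median log2 fold change was 0.30 against 0.001 over all genes. The largest changes were those of *Postn*, a matrix protein also made by fibroblasts (log2 fold change 0.999), and *Abcc9*, a subunit of the potassium channel of pericytes (from 330 ± 1.63 to 583 ± 15.5 (SD, n = 2) normalized counts, log2 fold change 0.82). *Kcnj8*, the pore of the same channel, had a log2 fold change of 0.12 and did not pass. *Pdgfrb*, the receptor through which ECs recruit pericytes, rose with a log2 fold change of 0.27 and *Notch3*, the Notch receptor of mural cells, with 0.33. *Trpc6* (0.611), *Higd1b* (0.366), *Cox4i2* (0.302) and *Ndufa4l2* (0.263) rose as well, and the 1 lower gene was *Ebf1* (-0.203). These genes, *Kcnj8*, *Pdgfrb* and *Notch3* were named after their values were seen. *Mcam*, which ECs express too, was the most abundant of the list and had a log2 fold change of 0.26. These genes were listed as pericyte markers, but several are made by fibroblasts or ECs as well.

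Markers of other cell types also moved between the groups, and their part in the rise of the 10 genes was not tested. Counts of markers here and in the paragraphs below stand beside 29.3% higher and 27.8% lower over all genes. Summed per kilobase, the 10 genes were at 8087 and 8284 in sham and at 11978 and 11923 after PNX, while 12 endothelial markers were at 195023 and 197238 in sham and at 165532 and 166147 after PNX. The sum of the 10 genes was thus 4.15% and 4.20% of the endothelial sum in sham and 7.24% and 7.18% after PNX. Of the 12 endothelial markers 10 were lower and 1 was higher (median log2 fold change -0.22). Scaled to these markers, 3 of the 10 contractile and mural genes passed both thresholds, *Tpm2* (1.19) in addition to *Rgs5* and *Cspg4*. That scaling shifted the median of all genes by 0.24.

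Fibroblast markers had larger changes than the contractile genes, with 8 of 10 higher, 1 lower, a median log2 fold change of 2.15 and a sum per kilobase of 20268 and 20558 in sham and 69203 and 69817 after PNX. Among them *Col3a1* rose from 18233 ± 41.5 to 88243 ± 285 (SD, n = 2) normalized counts, whereas *Pdgfra* and *Tcf21*, which mark resident lung fibroblasts and were named after their values were seen, had log2 fold changes of -0.23 and 0.02. All 7 mesothelial markers were higher (median 1.03), with *Wt1* at 2.68 and a sum per kilobase of 6781 and 6840 in sham and 12829 and 13033 after PNX. Platelets carry CD31 and are rich in Myl9, and 4 of 8 platelet markers were higher (median 0.26), with *Pf4* at 1.34 and *Itga2b* at 0.38. Their sum per kilobase was 2245 and 2253 in sham and 3765 and 3628 after PNX.

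Of 7 leukocyte markers tested 6 were higher (median 2.11), led by *C1qb* (2.98), with a sum per kilobase of 144110 and 143862 in sham and 182902 and 182389 after PNX. Most of that sum was *Lyz2*, with 136885 ± 280 per kilobase in sham and 157752 ± 588 after PNX (SD, n = 2 each, log2 fold change 0.205). *Ptprc*, which encodes the pan-leukocyte CD45, had 11566 ± 44.1 and 11543 ± 172 (SD, n = 2) normalized counts. Epithelial markers went down, with 6 of 8 lower (median -0.59), 1 higher, and a sum per kilobase of 576423 and 579626 in sham and 327672 and 320653 after PNX.

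Striated muscle, which also expresses *Des*, *Tpm2* and skeletal or cardiac actin, left some RNA in all libraries, and its cardiac and skeletal sums overlapped between the groups. Cardiac actin, *Actc1*, had 453 and 417 normalized counts in sham and 487 and 462 after PNX (log2 fold change 0.13, not past the test), and its reads may be shared with the other actins. The sleeve of heart muscle around pulmonary veins is a known source of cardiac RNA in mouse lung. Cardiac markers summed to between 439 and 515 normalized counts per kilobase in all libraries, with the heart factor *Nkx2-5* at 0 counts in each of them. Of 9 tested 2 were higher and 1 was lower. *Tnnt2* had 22.7 ± 3.93 and 45.3 ± 2.62 (SD, n = 2) normalized counts, a rise that did not pass without sham replicate 1 (log2 fold change 0.83) or without PNX replicate 1 (0.94), nor in DESeq2's Wald test (1.00). *Ryr2*, the calcium release channel, fell from 150 and 119 to 70.8 and 78.0 normalized counts (log2 fold change -0.87). Skeletal muscle markers summed to between 227 and 249 per kilobase, with *Myh4* at 0 counts in each library, and none of the 4 tested passed edgeR's quasi-likelihood test.

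**Figure D4:**
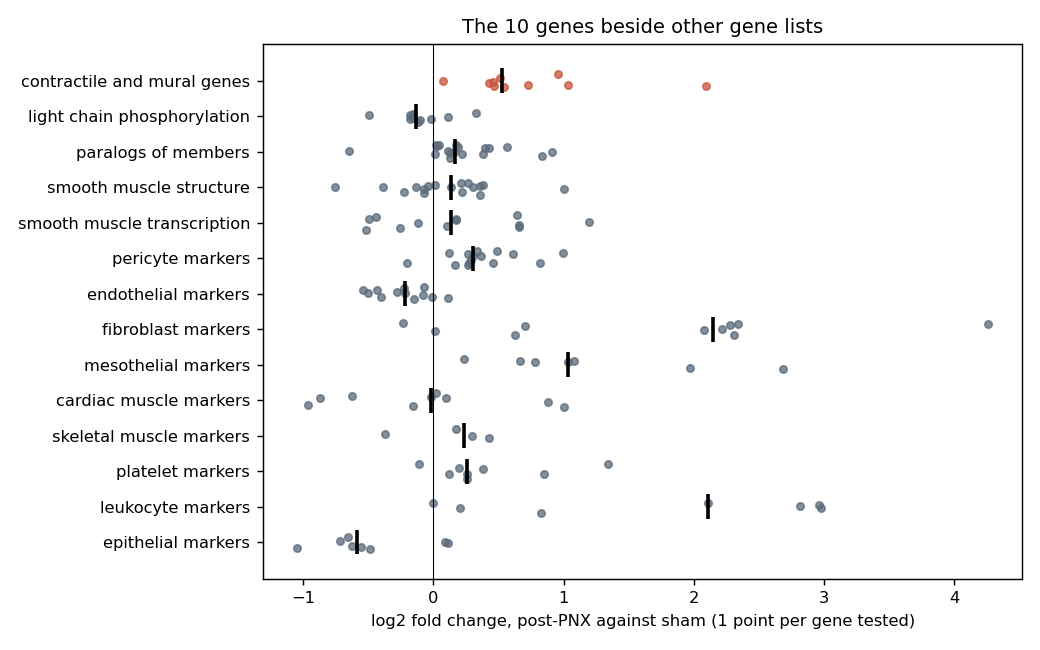
Log2 fold changes, post-PNX against sham, of the 10 contractile and mural genes (red) and of 13 other gene lists (grey), with 1 point per gene tested, spread vertically for legibility, and the list's median as a black bar. The 10 genes have a median of 0.52, above the pericyte markers (0.30) and further smooth muscle genes (0.13) and below the fibroblast (2.15) and mesothelial (1.03) markers.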

How the data were processed

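Libraries were made from polyadenylated RNA with a stranded kit and read from both ends, with mm10 as the genome (STAR is named in the submitters' processing notes, without a version). The counting program is not given in the sources used here. The authors deposited whole-number counts for each of 33068 RefSeq transcripts, without normalization. The deposited FPKM values served here only to recover transcript lengths, and the deposited TPM values were not used. Transcripts of a gene share reads, so each gene was represented by its transcript of highest summed count.

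The 16208 genes kept by filterByExpr were compared in R 4.3.3 with edgeR 4.0.16 (TMM, quasi-likelihood F test, no covariates, Benjamini-Hochberg adjustment over all genes). "Higher" and "lower" mean an adjusted p under 0.01, and the fold threshold, from the study's methods, is a log2 fold change beyond 1. The standard error was taken as the absolute log2 fold change over the root of F. A count of 3 was taken as the floor. Positions and promoter windows are from RefSeq on GRCm38.p6 and overlapping genes from GENCODE M21, both on the build of the files.

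The 10 genes and the other lists were chosen with earlier results of these data known. From each other list, the genes to name were the called genes with the largest fold changes and the 2 with the most counts. Where none was called, the largest fold changes among those tested were taken. Some or all of these go unnamed in the text for the endothelial, fibroblast, mesothelial, skeletal muscle, platelet, leukocyte and epithelial lists. Further genes are named to complete a description. Some of these and the ratios were picked after their values were seen. Alternatives were other scalings and filters, DESeq2 1.42.0, counts summed over transcripts, the replicate number as a block, glmTreat and each library left out in turn. Steps were tested on simulated data. Libraries of a group differed by more than counting noise (mean chi-square per gene 1.74 in sham and 1.51 after PNX).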

Additional observations from a re-analysis of the deposited data

How the results depend on the processing

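Of 120 values of the 10 genes under the alternatives, 119 kept their direction and their side of the adjusted p of 0.01. The exception was *Myh11* scaled to the endothelial markers (0.32), where the median of the 10 genes was 0.76 (0.24 of it the shift of all genes). The replicate numbers come from different mice, and same-numbered libraries hardly deviated together (correlation 0.024). With the replicate block the median stayed at 0.52, with 9 genes higher and 2 past both thresholds.

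Genes past both thresholds, where a count moved by over 1.5 times: with glmTreat it was 1 of the 10 genes, 0 in smooth muscle structure, smooth muscle transcription, cardiac and epithelial lists, and 2 in the mesothelial list. Scaled to endothelial markers it was 2 in the paralogs, pericyte, cardiac and platelet lists and 0 lower in the epithelial list. Library size alone and a mean of at least 50 counts each gave 1 in the pericyte list (*Postn*, at 0.999 before). That filter and DESeq2's Wald test gave 0 in the cardiac list. Leaving out each library in turn gave 1 to 2 of the 10 genes, 0 to 1 in the structure, transcription, pericyte and skeletal lists, and 0 to 1 lower in the cardiac list.

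Signs turned in some genes. *Mylk* (-0.18) and *Cdh5* (-0.22) were lower with TMM, and *Myl4* (-0.16) and *Pecam1* (-0.01) did not pass. With endothelial scaling, for which *Cdh5* and *Pecam1* are among the markers used, the log2 fold changes were 0.062 in *Mylk*, 0.019 in *Cdh5*, 0.231 in *Pecam1*, 0.081 in *Myl4* and 0.236 in *Ptprc*. *Ptprc* was 0.001 with library size alone, 0.002 with summed transcripts and -0.017 to 0.014 with 1 library left out, and *Actb* -0.003 to 0.031. Causes beyond the scaling and the fewer samples were not tested. With a library left out, the lone sample of its group is assumed to vary like the other group. *Cspg4*, *Hspb6*, *Fhl2* and *Tnnt2* crossed a threshold when 1 library was left out.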
